A study of Drosophila melanogaster with 12 samples.

Results

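SHMT[X238] embryos were compared with wild-type embryos in the 6 libraries whose sample labels give the collection as 0–1 hr and the stage as preblastoderm, 6 of the 12 libraries of the series. Each genotype had 3 libraries of whole embryos. The 6444 genes compared, of 14161 counted, are those that averaged 50 or more counts in SHMT or in wild type. Of these, 5939 reached the minimum in both genotypes, 315 in SHMT alone and 190 in wild type alone. The members nearest to the minimum averaged 50 counts inside and 49.7 counts outside.

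The SHMT embryos came from females whose germline was homozygous for SHMT[X238], a stop mutation in CG3011, the gene for serine hydroxymethyltransferase. The germline clones were induced with a heat-shock Flipase and selected with ovo[D] on an X chromosome with an Frt site. The study made a version of this chromosome with y, pn and sn and Frt[19A] and another with w and f and Frt[18E]. It describes the chromosome of the sequenced embryos as marked with pn, which only the Frt[19A] version carries, and the paternal genotype was not given. OregonR embryos, an unrelated wild-type strain without the heat shock, Flipase or marker chromosome, served as controls, so that the mutation and the strain background cannot be told apart. The study calls the 3 libraries of a genotype biological replicates, but no source used here says that they came from separate parents, and p-values measure the spread between these samples.

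The early Drosophila embryo divides as a syncytium on RNAs and proteins loaded by the mother. At the midblastula transition, maternal RNAs are degraded, zygotic transcription starts on a large scale, the nuclear cycle pauses and the blastoderm cellularizes. SHMT converts serine to glycine and charges tetrahydrofolate with a C1 unit, which feeds the synthesis of purines and of thymidylate.

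Stage markers were examined first, and they ran against the label in both genotypes. The pair-rule gene eve, a zygotic transcription factor, stood at 8.86, 7.71 and 12.1 CPM in SHMT (counts scaled for library size, with sizes adjusted by the trimmed mean of M values, TMM) and at 72.5, 39.7 and 67.0 CPM in wild type. In the libraries labelled as the later collection, 1.5–2.5 hr, eve averaged 0.048 ± 0.043 CPM in SHMT and 0.39 ± 0.41 CPM in wild type (SD, n = 3 each). The zygotic RNA was therefore higher at the label of the earlier collection, in all 6 libraries. Slam, which is required for the cellularization furrow, stood at 1661, 1784 and 3862 CPM in SHMT and at 6070, 3464 and 6201 CPM in wild type, while it averaged 165 ± 21.6 CPM in SHMT and 187 ± 20.2 CPM in wild type at the other label. The maternal RNA exu, which acts in bcd RNA localization, stood at 8.29, 13.7 and 10.6 CPM in SHMT and at 9.67, 10.4 and 10.1 CPM in wild type, against means of 273 ± 58.8 CPM in SHMT and 372 ± 50.8 CPM in wild type at the other label. Cort, a maternal activator of the anaphase promoting complex in female meiosis, was counted at 1.29, 1.36 and 1.24 CPM in SHMT and 0.493, 0.892 and 1.49 CPM in wild type, against 62.8 ± 11.2 CPM in SHMT and 53 ± 5.76 CPM in wild type at the other label. It did not reach the count minimum at the 0–1 hr label. The libraries are therefore called by their label alone, and no stage is given to them. Whether the zygotic and maternal markers differ because of genotype or because the embryos of the collections differed in age cannot be told apart in these data.

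**Figure D1:**
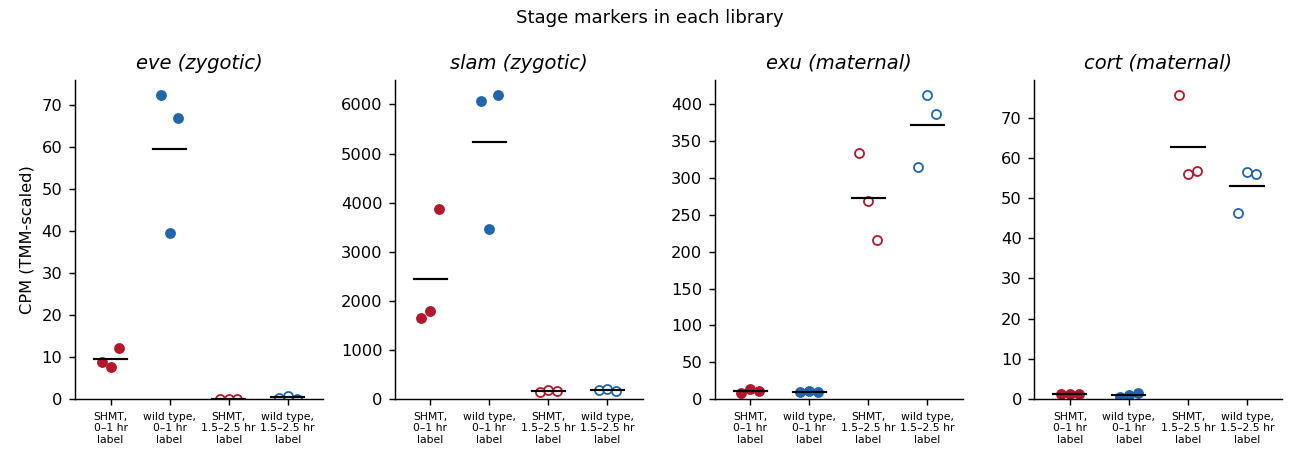
CPM of eve, slam, exu and cort in each library, SHMT left of wild type, with filled points for the 0–1 hr label and open points for the 1.5–2.5 hr label. Black lines are means of 3 libraries. The zygotic genes are high at the 0–1 hr label, where wild-type eve reaches 72.5 CPM and SHMT eve 12.1 CPM, and the maternal genes are high at the 1.5–2.5 hr label.

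The SHMT libraries held 21611094 to 22648570 reads in genes and the wild-type libraries 21681111 to 32642088. Reads outside genes made up 11.4, 8.83 and 9.28% in SHMT and 11.7, 7.66 and 7.11% in wild type. The first principal component of these 6 libraries held 80.7% of the variance and separated the genotypes, with SHMT at −33.4, −42.1 and −22.1 and wild type at 36.8, 27.3 and 33.6. SHMT replicate 3 and wild-type replicate 2 lay nearest to the other genotype. Replicates 1 and 2 of SHMT had a chi-square of 11.6 per degree of freedom, where sampling noise alone gives a value near 1, and replicate 3 had 55.7 and 60.1 against them, while pairs of wild-type replicates had 51.0 to 62.7. Between the genotypes the value was 69.5 to 112 for SHMT replicate 3 and 128 to 257 for the other SHMT replicates. No replicates looked like copies of a library.

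SHMT and wild type differed over 4-fold (edgeR's quasi-likelihood test, Benjamini-Hochberg adjusted p under 0.05) in 249 genes, 158 higher in SHMT (2.45% of those compared) and 91 lower (1.41%). With no fold threshold, 2107 were higher (32.7%) and 1755 lower (27.2%). Over all 6884 genes tested the shares were 2.7% higher and 1.38% lower by over 4-fold, and 32.9% and 25.8% at any fold. The median log2 difference, SHMT minus wild type, was −0.004 over all genes compared. The libraries of the genotypes did not overlap in 157 of the 158 higher and 88 of the 91 lower genes, which the call itself largely fixes, and in 3941 of all 6444 genes (61.2%). A part of these genes passed the count minimum only in the genotype where they were high, 73 of the 158 and 66 of the 91. Scaling by library size alone moved the median of all genes to 0.22 and called 236 higher and 70 lower, that is 77.1% of 4-fold calls higher against 63.5% with TMM. A test of the 4-fold threshold itself (edgeR's glmTreat) called 44 higher and 19 lower.

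**Figure D2:**
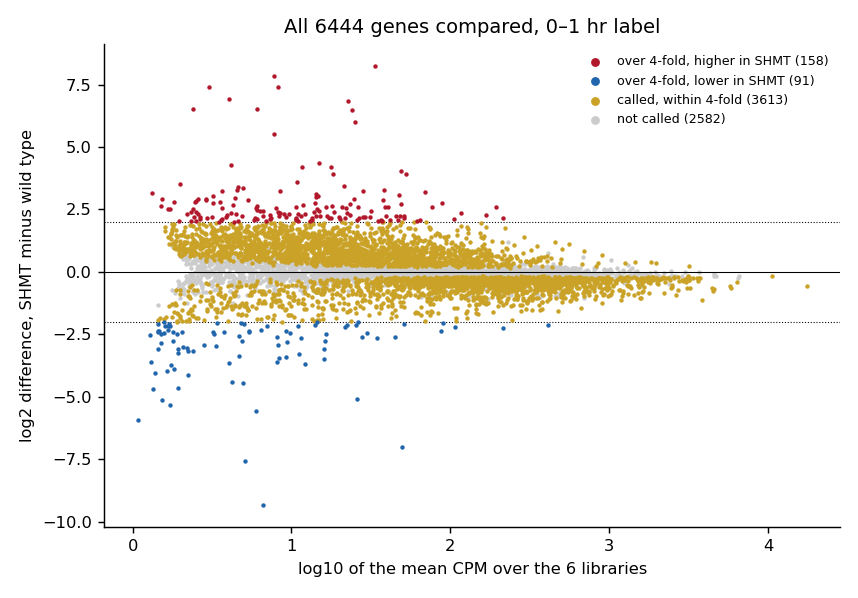
The log2 difference, SHMT minus wild type, against log10 of the mean CPM for the 6444 genes compared. Red points are the 158 genes higher by over 4-fold and blue points the 91 lower, ochre points passed the test within 4-fold, grey points did not pass, and dotted lines mark 4-fold.

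The genes were then divided by their mean CPM in the 6 libraries labelled 1.5–2.5 hr, which took no part in the comparison. RNAs nearly absent from those libraries, under 1 CPM, were mostly lower in SHMT. Of 298 such genes, 179 were lower (60.1%) and 15 higher (5.03%), and the median log2 difference was −1.24. This class holds genes that reached the count minimum in wild type alone, which had to be lower in SHMT. Among its 176 genes above the minimum in both genotypes, 88 were lower and 10 higher, with a median of −0.88. The median gene of the class stood at 3.19, 2.63 and 4.07 CPM in SHMT and at 9.98, 5.10 and 7.6 CPM in wild type. All SHMT libraries were below all wild-type libraries, with SHMT replicate 3 and wild-type replicate 2 closest to each other. Without SHMT replicate 3, the number of higher genes in this class was 9.

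RNAs that were abundant at the other label showed no such shift. From 1 to 10 CPM, 109 of 502 genes were higher and 128 lower, with a median log2 difference of −0.12. From 10 to 100 CPM, 1217 of 3262 were higher (37.3%) and 700 lower (21.5%), with a median of 0.10, and over 100 CPM, 766 of 2382 were higher and 748 lower, with a median of −0.05. The direction of the larger differences was uneven between these classes. Over 4-fold, 60 genes were lower and 5 higher under 1 CPM, whereas from 10 CPM upwards 135 were higher (80 from 10 to 100 CPM and 55 over 100 CPM) and 11 lower (8 and 3). With library sizes alone, the lower calls numbered 82 from 1 to 10 CPM, 281 from 10 to 100 CPM and 324 over 100 CPM.

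Among genes under 1 CPM at the other label, the difference was larger for genes with a longer span in the genome. Zygotic transcription in the short cycles of the syncytium is known to favour short genes. The 73 genes with the shortest span, 152 to 1477 bases, had a median log2 difference of −0.42, with 28 lower and 13 higher. The next 73 genes (1632 to 3373 bases) had a median of −1.12 with 42 lower, and the 72 genes after them (3400 to 10374 bases) a median of −1.23, also with 42 lower. Of the 73 longest genes, 10706 to 162060 bases, 61 were lower and none higher by the test, and the median was −1.68. The summed level of these longest genes was 427, 327 and 619 CPM in SHMT, against 1736, 707 and 1347 CPM in wild type, with no overlap between genotypes. The shortest genes summed to 1706, 1757 and 2104 CPM in SHMT, against 1813, 1719 and 1709 CPM in wild type, where the genotypes overlapped. Their median level did not overlap, at 5.52, 3.99 and 5.77 CPM in SHMT and 7.93, 7.31 and 7.80 CPM in wild type. Among genes above the count minimum in both genotypes the medians were −0.17, −0.90, −0.79 and −1.44 by increasing span. In the class from 1 to 10 CPM the medians were −0.07, −0.04, −0.17 and −0.40 by increasing span, with 16.8, 16.8, 29.8 and 39.2% of genes lower. From 10 to 100 CPM they lay between −0.002 and 0.17, and over 100 CPM between −0.06 and −0.02. Leaving out each library in turn gave medians of −1.94 to −1.27 for the longest and −0.50 to −0.29 for the shortest genes, and without wild-type replicate 1 the median of the 72 genes was −0.74. The division by span was chosen after the values were seen, rests on Release 6 annotation for 291 of the 298 genes, and is a description with no test.

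**Figure D3:**
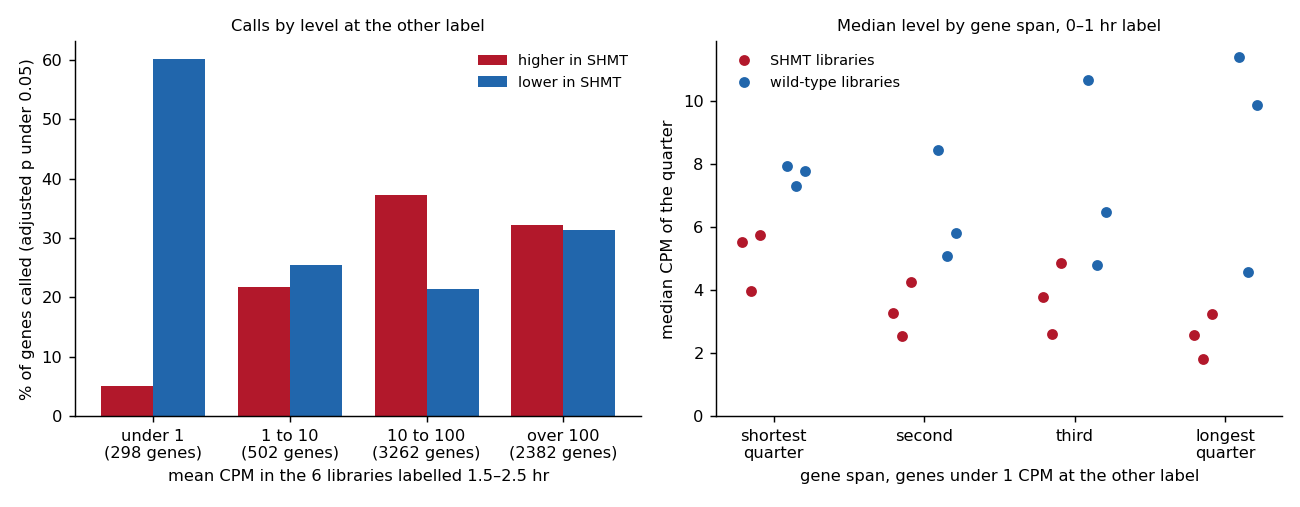
Left, the share of genes called higher (red) and lower (blue) in SHMT by mean CPM in the 6 libraries labelled 1.5–2.5 hr, where 60.1% of the genes under 1 CPM are lower. Right, the median CPM of those 291 genes in each SHMT library (red, left) and wild-type library (blue, right), from the shortest to the longest span. SHMT lies below wild type throughout except that SHMT replicate 3 and wild-type replicate 2 are nearly equal for the third group of spans.

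The segmentation genes are a cascade of mostly zygotic transcription factors that subdivides the body axis. In bulk RNA, fewer nuclei expressing a gene and less RNA per nucleus cannot be told apart. Of 11 gap genes, which read the maternal gradients, 6 were lower and none higher by edgeR's test, with a median log2 difference of −1.30, beside 27.2% lower over all genes. Among the 9 gap genes above the count minimum in both genotypes 5 were lower, with a median of −1.02. Kni, a gap repressor, stood at 35.8, 32.5 and 64.2 CPM in SHMT and at 204, 137 and 182 CPM in wild type (log2 difference −1.98 ± 0.51 SE, adjusted p = 0.0063 by edgeR and 0.12 by DESeq2). Nub, a POU-domain factor, stood at 1.19, 1.18 and 2.83 CPM in SHMT and at 17.0, 2.73 and 7.40 CPM in wild type (−2.40, adjusted p = 0.0041 by edgeR). The genotypes did not overlap for kni, but wild-type replicate 2 fell below SHMT replicate 3 for nub. The calls of hb and oc were lost when any of several libraries was left out, with adjusted p-values up to 0.076 and 0.097. The gap genes together summed to 774, 705 and 1334 CPM in SHMT and to 1798, 1338 and 1758 CPM in wild type. Hence SHMT replicate 3 reached the level of the lowest wild-type library, while the other SHMT replicates were well below it.

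Of 9 pair-rule genes, which set up alternate segments, 8 were lower and none higher by edgeR's test, 3 of them over 4-fold, and the median was −1.46. Over all genes 27.2% were lower and 32.7% higher. Opa passed the count minimum in wild type alone, and 7 of the other 8 were lower, with a median of −1.42. Run, a Runx factor, stood at 9.19, 8.80 and 10.8 CPM in SHMT and at 54.5, 26.5 and 42.7 CPM in wild type (−2.11 ± 0.34 SE, adjusted p = 0.00033). Opa, a zinc finger factor that acts late in the cascade, stood at 0.238, 0.408 and 0.515 CPM in SHMT and at 20.4, 1.45 and 2.39 CPM in wild type. The genotypes were separate for both genes, but the fold of opa rested largely on wild-type replicate 1. Slp2 was at 2.29, 2.00 and 3.14 CPM in SHMT and 9.33, 4.46 and 5.27 CPM in wild type, again without overlap. With DESeq2, the adjusted p-values of ftz and prd were 0.19 and 0.18, and that of prd was 0.051 without SHMT replicate 1. The pair-rule sum was 195, 144 and 209 CPM in SHMT, against 621, 305 and 441 CPM in wild type, and the genotypes did not overlap.

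Of the segment polarity genes, which act last in the cascade, 3 of 10 passed the count minimum, nkd in wild type alone. Nkd, an inhibitor of Wnt signalling, stood at 0.524, 0.590 and 0.670 CPM in SHMT and at 12.9, 3.23 and 6.36 CPM in wild type (−3.66 ± 0.54 SE, adjusted p = 0.00017 by edgeR). The SHMT libraries lay close together, while the wild-type libraries spread over several fold. Ptc, the Hedgehog receptor, was lower with some overlap (−1.37, adjusted p = 0.010), and wg was at 3.67, 1.86 and 2.58 CPM in SHMT and 3.64, 2.29 and 2.43 CPM in wild type (adjusted p = 0.90). None of 8 Hox genes passed the minimum, and their sum was 0.857 to 1.27 CPM in SHMT and 3.35 to 5.24 CPM in wild type.

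Among genes of the dorsoventral axis the picture was mixed. Of 10 mesoderm and neuroectoderm genes 4 were lower and 2 higher by edgeR's test, with a median of −0.97. Among the 9 above the count minimum in both genotypes 3 were lower and 2 higher, with a median of −0.87. Over all genes 27.2% were lower and 32.7% higher. The BMP inhibitor sog stood at 38.8, 21.0 and 52.9 CPM in SHMT and at 117, 73.6 and 154 CPM in wild type (−1.62 ± 0.51 SE, adjusted p = 0.017 by edgeR, 0.16 by DESeq2, 0.056 without SHMT replicate 2 and 0.059 without wild-type replicate 3), and vnd, a neuroectodermal homeobox gene, at 3.52, 2.68 and 8.55 CPM in SHMT and 17.9, 9.09 and 13.6 CPM in wild type. Mef2, a muscle transcription factor whose RNA was also present at the other label (89.7 CPM in SHMT and 63.3 CPM in wild type), stood at 11.6, 11.4 and 4.64 CPM in SHMT and at 2.24, 2.68 and 3.03 CPM in wild type (1.81 ± 0.29 SE, adjusted p = 0.00030). Mef2 was thus higher in every SHMT library, least so in replicate 3. The second higher gene, zfh1, lost its call without SHMT replicate 1 or wild-type replicate 2 (adjusted p = 0.055 and 0.058).

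Of 11 dorsal ectoderm genes, 3 were lower (peb, Doc3 and dpp), a share near the 27.2% over all genes, none was higher, and the median was −0.57. Peb and Doc3 passed the count minimum in wild type alone, and of the 9 genes that passed in both genotypes dpp alone was lower. Its call was lost with library sizes alone (adjusted p = 0.087), with the 6 libraries alone (0.073) and without SHMT replicate 1 or 2 or wild-type replicate 1 or 3 (0.10 to 0.12). Without wild-type replicate 2, 5 genes of the list were lower. The early genes zen and scw did not pass the test. Zen, a homeobox gene, stood at 226, 201 and 230 CPM in SHMT and 345, 306 and 288 CPM in wild type, and scw, a BMP ligand, at 548, 504 and 496 CPM in SHMT and 255, 336 and 338 CPM in wild type. The adjusted p-values were 0.26 and 0.33 by edgeR, although the libraries of the genotypes did not overlap. The test takes the spread of each gene from all 12 libraries, so these p-values do not rest on the 6 libraries alone.

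Of 8 early zygotic genes of cellularization, kuk and slam were lower, a share near the 27.2% over all genes, none was higher, and the median was −0.51. Kuk, which shapes the nuclear envelope, stood at 3250, 3233 and 3997 CPM in SHMT and at 6482, 5053 and 5324 CPM in wild type (−0.69 ± 0.11 SE, adjusted p = 0.00027 by edgeR). Nullo, a furrow protein, was at 288, 250 and 273 CPM in SHMT and 246, 309 and 276 CPM in wild type (−0.03 ± 0.52 SE, adjusted p = 0.96), and Sry-alpha at 988, 1165 and 1755 CPM in SHMT and 2080, 1584 and 1683 CPM in wild type (adjusted p = 0.43). For slam, nullo and Sry-alpha the genotypes overlapped, for kuk they did not. Nor did they overlap for bnk and CG14427. Bnk stood at 1024, 1083 and 1650 CPM in SHMT and 1935, 1843 and 1802 CPM in wild type (−0.57, adjusted p = 0.59). CG14427 stood at 81.2, 122 and 169 CPM in SHMT and 203, 177 and 174 CPM in wild type (adjusted p = 0.34). In the fit of the 6 libraries alone bnk was lower (−0.60, adjusted p = 0.028). Log2 differences of the list ran from −1.11 to −0.03.

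Genes that count the X chromosomes and act in dosage compensation were lower in 6 of 14 cases, none was higher, and the median was −0.62. Over all genes 27.2% were lower and 32.7% higher. The call of os, among the 6, was lost with DESeq2 (adjusted p = 0.075). It was also lost in edgeR's fit without SHMT replicate 1 or 2 or wild-type replicate 1 or 3 (adjusted p of 0.056 to 0.066). Msl-2, the male-specific subunit of the dosage compensation complex, stood at 16, 13.8 and 26.2 CPM in SHMT and at 94.1, 37.6 and 67.0 CPM in wild type (−1.83 ± 0.30 SE, adjusted p = 0.00040 by edgeR). In contrast sisA, an X-linked counting gene, stood at 80.8, 140 and 250 CPM in SHMT and 97.3, 61.1 and 64.9 CPM in wild type (1.08, adjusted p = 0.12). Msl-2 was lower in every SHMT library, while sisA overlapped.

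Of 20 cell surface and guidance genes, 15 passed the count minimum, 13 of these were lower by edgeR's test, 5 over 4-fold, none was higher, and the median log2 difference was −1.74. Over all genes 27.2% were lower and 32.7% higher. Of the 15, 3 passed in wild type alone, among them tutl. Of the 12 that passed in both genotypes 10 were lower, with a median of −1.59. Lea, a Robo receptor, stood at 8.19, 6.26 and 9.22 CPM in SHMT and at 64.3, 26.5 and 53.1 CPM in wild type (−2.61 ± 0.34 SE, adjusted p = 7.4e-05). Sli, the ligand of the Robo receptors, stood at 20.5, 13.9 and 28.4 CPM in SHMT and 83.1, 36.5 and 91.4 CPM in wild type (−1.75, adjusted p = 0.00084), and the immunoglobulin superfamily gene tutl at 2.57, 1.36 and 1.34 CPM in SHMT and 31.6, 9.98 and 25.6 CPM in wild type (−3.67, adjusted p = 0.00019). In all 3 genes wild-type replicate 2 was the lowest wild-type library and still above every SHMT library. At the other label lea and tutl were under 1 CPM in both genotypes, and sli stood at 7.15 CPM in SHMT and 4.12 CPM in wild type. LanB1, a laminin chain also present at the other label, was lower by less (−0.81, adjusted p = 0.00027).

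A small set of zygotic RNAs was higher in SHMT. The Enhancer of split gene HLHm7, a repressor downstream of Notch, stood at 13.3, 13.3 and 14.9 CPM in SHMT and at 3.53, 2.12 and 2.24 CPM in wild type (2.38 ± 0.27 SE, adjusted p = 3.2e-05 by edgeR). The forkhead gene fd19B stood at 28.7, 30.4 and 30.5 CPM in SHMT and 7.74, 10.8 and 11.1 CPM in wild type, and CG13716 at 40.5, 54.3 and 65.8 CPM in SHMT and 11, 9.82 and 8.75 CPM in wild type. All 3 were under 1 CPM at the other label in both genotypes and did not overlap between the genotypes. Of 11 Enhancer of split genes 2 passed the count minimum, and m4, the other, missed the threshold (0.68, adjusted p = 0.052) but passed with library sizes alone (0.016) and in the fit of the 6 libraries alone (0.0020).

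**Figure D4:**
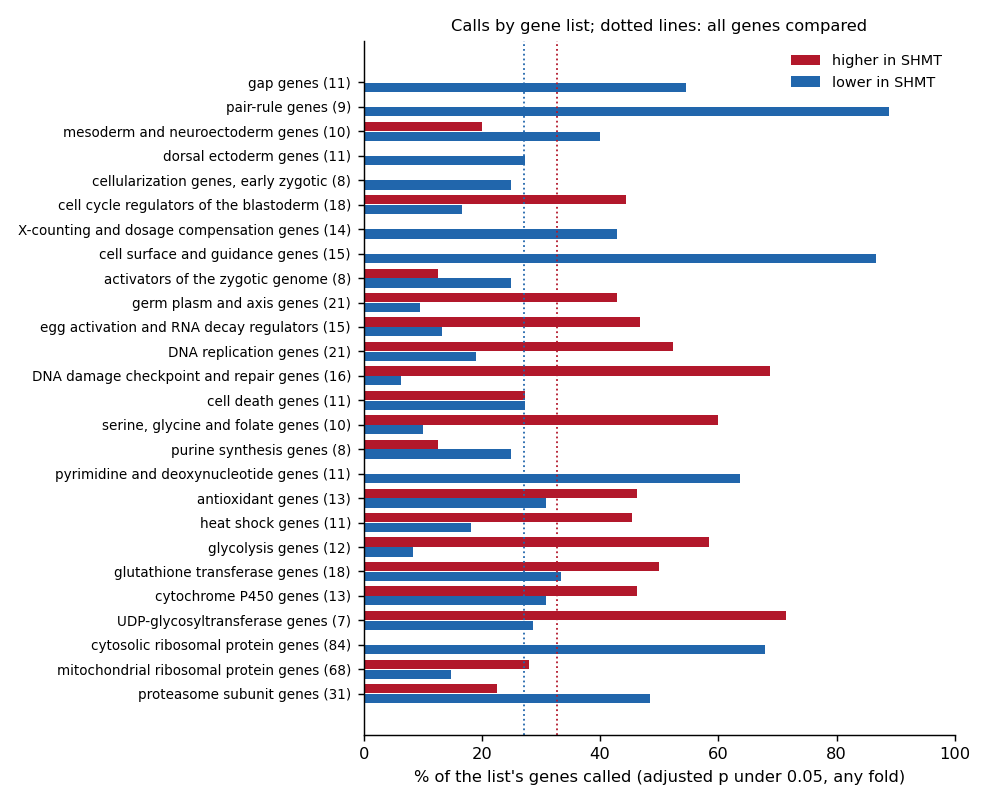
Share of each list's genes called higher (red, upper bar) or lower (blue, lower bar) in SHMT at any fold, for lists with at least 7 genes compared (number in parentheses). Dotted lines mark the shares over all genes, 32.7% higher and 27.2% lower. Pair-rule (8 of 9 lower) and surface and guidance genes (13 of 15 lower) stand at one end, and DNA damage genes (11 of 16 higher) at the other.

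Regulators of the zygotic genome and of the cell cycle were examined next. Of 8 activators of zygotic transcription, dl was higher and Trl and CG1832 lower, beside 32.7% higher and 27.2% lower over all genes. Vfl (zelda), the pioneer factor of the early genome, stood at 141, 120 and 191 CPM in SHMT and 281, 163 and 230 CPM in wild type (−0.58 ± 0.23 SE, adjusted p = 0.052 by edgeR), with overlapping genotypes. The call of Trl, the GAGA factor (−0.73, adjusted p = 0.0073), was kept in every alternative. That of CG1832 was lost with library sizes alone and without SHMT replicate 2, SHMT replicate 3 or any wild-type replicate (adjusted p of 0.058 to 0.10 without these libraries). Vfl was called by DESeq2 (adjusted p = 0.020) and with a replicate block in edgeR's fit of 12 libraries (0.037). It was also called without SHMT replicate 3 (0.016) and without wild-type replicate 2 (0.015).

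Of 18 cell cycle regulators compared, 8 were higher and 3 lower, beside 32.7% higher and 27.2% lower over all genes, and the median was 0.25. Stg, the Cdc25 phosphatase that drives entry into mitosis, stood at 158, 187 and 120 CPM in SHMT and at 17.8, 25.8 and 25.8 CPM in wild type (2.75 ± 0.17 SE, adjusted p = 4.8e-07 by edgeR). The Cdk inhibitor rux stood at 6.24, 8.85 and 7.21 CPM in SHMT and 1.37, 0.892 and 1.14 CPM in wild type (2.69 ± 0.19 SE, adjusted p = 1.1e-06), and Myt1, an inhibitory kinase of Cdk1, at 7.19, 9.57 and 6.90 CPM in SHMT and 1.90, 2.29 and 3.18 CPM in wild type (1.70 ± 0.21 SE, adjusted p = 5.0e-05). Rux passed the count minimum in SHMT alone, and of the other 17 regulators 7 were higher and 3 lower, with a median of 0.23. Stg and Myt1, a promoter and an inhibitor of mitosis, were thus both among the higher RNAs, without overlap. The checkpoint kinases grp (0.65, adjusted p = 0.0045) and lok (0.78, adjusted p = 0.00084) were higher by less. Trbl, which targets Cdc25 for degradation, stood at 145, 142 and 242 CPM in SHMT and 435, 272 and 344 CPM in wild type (−0.99 ± 0.21 SE, adjusted p = 0.0022), and CycB3 was lower by 0.57 on the log2 scale (adjusted p = 0.0048).

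Lists of germ plasm, axis and egg activation genes, whose RNAs are known to be supplied by the mother, held more higher than lower genes in SHMT. Over all RNAs above 100 CPM at the other label, 766 of 2382 were higher and 748 lower. Of 21 germ plasm and axis genes, 9 were higher and 2 lower, with a median of 0.37, beside 32.7% higher and 27.2% lower over all genes. With library sizes alone, 14 were higher and 1 lower. Egl, an adaptor for RNA transport by dynein, stood at 21.6, 27.5 and 16.9 CPM in SHMT and at 4.4, 4.91 and 5.66 CPM in wild type (2.15 ± 0.16 SE, adjusted p = 1.6e-06 by edgeR). Piwi, a nuclear piRNA effector, stood at 119, 139 and 98.7 CPM in SHMT and 65.7, 57.4 and 61.8 CPM in wild type (0.95, adjusted p = 4.8e-05), and aret, the translational repressor Bruno, at 30.0, 51.4 and 39.0 CPM in SHMT and 17.1, 16.1 and 18.2 CPM in wild type (1.23, adjusted p = 7.4e-05). None of these overlapped. Pum, a translational repressor and partner of Nanos, went the other way, at 157, 128 and 194 CPM in SHMT and 408, 297 and 318 CPM in wild type (−1.10 ± 0.21 SE, adjusted p = 0.0010). Without SHMT replicate 1, SHMT replicate 2 or wild-type replicate 3, 1 gene of the list was lower.

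Of 15 regulators of egg activation and RNA decay, 7 were higher and 2 lower (1 without SHMT replicate 1, SHMT replicate 2 or wild-type replicate 3), with a median of 0.46. Over all genes 32.7% were higher and 27.2% lower. Wisp, the cytoplasmic poly(A) polymerase of the egg, stood at 438, 466 and 356 CPM in SHMT and at 148, 147 and 190 CPM in wild type (1.38 ± 0.12 SE, adjusted p = 4.5e-06 by edgeR). Gnu, a subunit of the Pan Gu kinase, stood at 62.2, 80.1 and 36.2 CPM in SHMT and 12.4, 18.2 and 13.6 CPM in wild type (2.02 ± 0.24 SE, adjusted p = 3.7e-05), and the deadenylase subunits twin and Pop2 were higher by 0.66 and 0.56 on the log2 scale (adjusted p = 0.00075 and 0.00022). For wisp and gnu, SHMT replicate 3 was the SHMT library nearest to wild type. At the other label the genotypes were close for wisp, with means of 1249 CPM in SHMT and 1114 CPM in wild type, and for gnu, with 331 CPM in SHMT and 334 CPM in wild type.

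Of 21 DNA replication genes, 11 were higher and 4 lower, with a median of 0.35, beside 32.7% higher and 27.2% lower over all genes. Mcm2, a subunit of the replicative helicase, stood at 89.2, 99.5 and 86.8 CPM in SHMT and at 26.7, 29.2 and 27.8 CPM in wild type (1.72 ± 0.08 SE, adjusted p = 5.7e-08 by edgeR). RpA-70, the large subunit of the single-strand binding protein, stood at 25.9, 45.6 and 22.6 CPM in SHMT and 6.45, 5.69 and 5.52 CPM in wild type (2.41 ± 0.22 SE, adjusted p = 6.3e-06). Orc1, a subunit of the origin recognition complex, was lower, at 90.1, 99.5 and 115 CPM in SHMT and 285, 377 and 508 CPM in wild type (−1.94 ± 0.18 SE, adjusted p = 5.8e-06), whereas the partner subunits Orc4 (1.48, adjusted p = 4.1e-06) and Orc5 (0.66, adjusted p = 0.00013) were higher. The genotypes did not overlap for any of these genes, but Orc4 passed the count minimum in SHMT alone. Of the other 20 genes of the list 10 were higher and 4 lower, with a median of 0.28. With library sizes alone, 1 gene of this list was lower.

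Among 16 genes of the DNA damage checkpoint and of repair, 11 were higher and 1 lower (none lower without wild-type replicate 1), with a median of 0.78. Of the 15 above the count minimum in both genotypes 10 were higher and 1 lower. Phr6-4, the photolyase for 6-4 photoproducts, stood at 17.7, 21.3 and 12.9 CPM in SHMT and at 3.91, 4.24 and 4.17 CPM in wild type (2.08 ± 0.16 SE, adjusted p = 1.95e-06 by edgeR). Tefu, the ATM kinase, stood at 14.3, 17.8 and 8.91 CPM in SHMT and 7.25, 5.24 and 6.76 CPM in wild type (1.09, adjusted p = 0.0011). Every SHMT library was above every wild-type library for both genes. Of 11 cell death genes, 3 were higher and 3 lower (1 lower with library sizes alone), near the shares over all genes of 32.7% and 27.2%: the caspases Ice (−0.48, adjusted p = 0.00026), Nc (−0.33, adjusted p = 0.0024) and Dcp-1 (−0.31, adjusted p = 0.0048) were lower, and the Bcl-2 family gene debcl (0.81, adjusted p = 0.00038), Corp (1.12, adjusted p = 0.0039) and the Apaf-1 homologue Ark (0.42, adjusted p = 0.0085) were higher. The calls of Nc and Dcp-1 were lost with library sizes alone (adjusted p = 0.28 and 0.38).

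The largest rises divided by their level at the other label. A first group was low in wild type at either label. CG32581 stood at 72.2, 63.6 and 65.8 CPM in SHMT and at 0.304, 0.335 and 0 CPM in wild type, and CG13937 at 47.7, 45.0 and 49.8 CPM in SHMT and 0.304, 1.23 and 0.149 CPM in wild type. CG32017, a gene of the fourth chromosome, stood at 7.62, 7.03 and 9.01 CPM in SHMT and 0.531, 0.335 and 0.298 CPM in wild type (4.29 ± 0.35 SE, adjusted p = 2.6e-06 by edgeR). The spread among SHMT libraries was small beside the difference in each of these genes, as it was for CG13532, CG14879, CG42330, CG2641, Cyp4p2 and the dehydrogenase gene Sodh-2. For Zip3, a zinc transporter, 378 counts over the SHMT libraries stood against 2 over the wild-type libraries, a ratio of 195 (95% interval 53.6 to 1615, counting error only). CG42857 was different in kind, at 20.2, 0.953 and 2.94 CPM in SHMT and 0.0379, 0.0558 and 0.0994 CPM in wild type. It rested on SHMT replicate 1, without which the log2 difference was 4.85 with an adjusted p of 0.081, and without wild-type replicate 1 the adjusted p was 0.052.

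In a second group the RNAs were present in both genotypes at the other label and were higher in SHMT at the 0–1 hr label. CG15047 stood at 42.9, 47.2 and 44.9 CPM in SHMT and at 0.304, 0.781 and 0.149 CPM in wild type (6.83 ± 0.29 SE, adjusted p = 3.2e-08 by edgeR), against 64.6 CPM in SHMT and 37.2 CPM in wild type at the other label. Pvf1, a ligand of the PDGF and VEGF receptor, stood at 94.0, 83.4 and 100 CPM in SHMT and 4.51, 7.47 and 5.02 CPM in wild type (4.04 ± 0.16 SE, adjusted p = 2.5e-08), against 58.8 CPM in SHMT and 64.8 CPM in wild type at the other label. Tgt, which exchanges guanine for queuine in tRNAs, stood at 17.0, 27.3 and 22.4 CPM in SHMT and 1.52, 1.12 and 0.894 CPM in wild type (4.21 ± 0.25 SE, adjusted p = 3.2e-07), against 25.9 CPM in SHMT and 27.3 CPM in wild type. In these 3 genes wild type was far below its own level at the other label, while SHMT was near to its own. CG3626, at 73.8 CPM in SHMT and 52.7 CPM in wild type at the other label, stood at 25.6, 27.3 and 32.8 CPM in SHMT and 1.33, 1.45 and 1.39 CPM in wild type at the 0–1 hr label. The transcription factor Usf (3.45, adjusted p = 5.3e-08) and wus (3.12, adjusted p = 2.5e-08) were higher too, with log2 differences of 0.07 and 0.03 at the other label.

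Among RNAs abundant at the other label, those with the lowest adjusted p in the rising direction were examined. CG9925 stood at 126, 125 and 123 CPM in SHMT and at 14.4, 13.6 and 13.0 CPM in wild type (3.19 ± 0.10 SE, adjusted p = 9.4e-09 by edgeR). The polyubiquitin gene Ubi-p5E stood at 196, 187 and 207 CPM in SHMT and 58.9, 56.6 and 63.1 CPM in wild type (1.73 ± 0.08 SE), and schlank, a ceramide synthase, at 127, 123 and 118 CPM in SHMT and 39.2, 42.6 and 44.4 CPM in wild type (1.55 ± 0.08 SE). In these 3 genes SHMT replicate 3 did not stand apart from the other SHMT libraries.

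The largest falls also held RNAs that were nearly absent from SHMT at both labels. For CG34353, 1 count over the SHMT libraries stood against 812 over the wild-type libraries, a ratio of 787 (95% interval 141 to 31138, counting error only), and for CG42286 3 counts against 654, a ratio of 211 (72.0 to 1028). CG3038 stood at 1.05, 0.318 and 0.927 CPM in SHMT and at 96.4, 101 and 99.7 CPM in wild type, and at 0.291 CPM in SHMT and 51.1 CPM in wild type at the other label. These RNAs were thus low in SHMT in all 6 of its libraries. CG15236 was instead absent from both genotypes at the other label or nearly so (0 CPM in SHMT and 0.042 CPM in wild type), and stood at 0.333, 0.136 and 0.258 CPM in SHMT and 16.3, 10.2 and 8.50 CPM in wild type at the 0–1 hr label (−5.58 ± 0.48 SE, adjusted p = 1.2e-05 by edgeR). ASPP, a homologue of the p53-binding ASPP proteins, was of that kind too, at 1.95, 1.68 and 2.63 CPM in SHMT and 30.3, 10.6 and 19.3 CPM in wild type.

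Of the RNAs at 10 CPM or more at the other label, 11 were lower in SHMT by over 4-fold at the 0–1 hr label, and at any fold 700 of those at 10 to 100 CPM and 748 of those over 100 CPM were lower. Trs23, a subunit of the TRAPP vesicle tethering complex, stood at 1.57, 1.50 and 1.65 CPM in SHMT and at 16.7, 17.8 and 16.2 CPM in wild type (−3.43 ± 0.13 SE, adjusted p = 2.5e-08 by edgeR), against 20.7 CPM in SHMT and 21.0 CPM in wild type at the other label. CG1354 stood at 80.7, 77.2 and 64.9 CPM in SHMT and 338, 374 and 344 CPM in wild type (−2.24 ± 0.09 SE, adjusted p = 2.5e-08), and asf1, a histone H3 and H4 chaperone, at 82.5, 87.1 and 102 CPM in SHMT and 276, 283 and 277 CPM in wild type (−1.62 ± 0.10 SE, adjusted p = 3.2e-07). All 3 were well separated, and the genotypes were close at the other label, at 242 CPM in SHMT and 229 CPM in wild type for CG1354 and at 190 CPM in SHMT and 211 CPM in wild type for asf1. The actin-binding gene cib, at 31.8, 41.1 and 31.7 CPM in SHMT and 122, 118 and 102 CPM in wild type, was lower as well (−1.71, adjusted p = 5.7e-07), with a log2 difference of −0.03 at the other label.

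**Figure D5:**
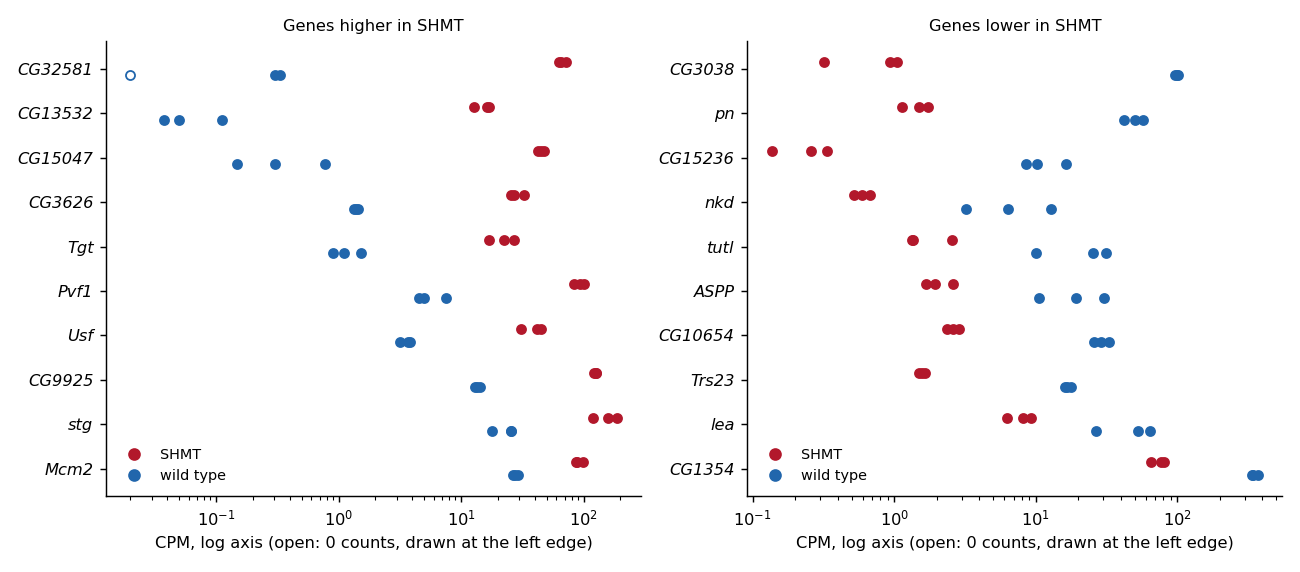
CPM on a log axis in each SHMT (red, upper) and wild-type (blue, lower) library for 10 genes higher and 10 genes lower in SHMT. An open point is a library with no count. The genotypes do not overlap in any of the 20 genes, which were chosen for their differences. Wild-type replicates spread more in zygotic genes such as nkd and tutl than in Trs23 or CG1354.

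SHMT itself, CG3011, stood at 5.57, 6.49 and 7.37 CPM in SHMT and at 3.38, 4.18 and 4.67 CPM in wild type (0.67 ± 0.17 SE, adjusted p = 0.0048 by edgeR). A stop mutation need not alter the RNA level, so this value does not check the genotype. Of 18 genes of serine, glycine and folate metabolism 10 were compared, 6 were higher, 1 lower and the median was 0.54. Over all genes 32.7% were higher and 27.2% lower. CG6287, the homologue of phosphoglycerate dehydrogenase, the entry into serine synthesis, stood at 40.8, 50.6 and 39.5 CPM in SHMT and 8.27, 10.7 and 10.4 CPM in wild type (2.16 ± 0.12 SE, adjusted p = 2.3e-07). CG11899, the homologue of phosphoserine aminotransferase in the next step, stood at 14.4, 16.3 and 13.4 CPM in SHMT and 6.30, 7.36 and 6.46 CPM in wild type (1.14 ± 0.10 SE, adjusted p = 4.7e-06). Ppl, the H protein of the glycine cleavage system, was higher as well (1.61, adjusted p = 3.5e-05). Pug, the trifunctional enzyme that interconverts C1-tetrahydrofolates, was lower, at 63.7, 58.7 and 104 CPM in SHMT and 153, 125 and 191 CPM in wild type (−1.05 ± 0.20 SE, adjusted p = 0.0011). None of these genes overlapped between the genotypes.

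Genes of nucleotide synthesis were examined next, beside shares over all genes of 32.7% higher and 27.2% lower. Of 8 purine synthesis genes, CG17273 (−0.61, adjusted p = 0.0013) and ade3 (−0.73, adjusted p = 0.0039) were lower and ade5 was higher (0.78, adjusted p = 0.030), the last with overlapping genotypes and with no call without SHMT replicate 2 (adjusted p = 0.19) or any wild-type replicate (0.056 to 0.073). The ade5 call was also lost with the 6 libraries alone (0.087) and with a replicate block in the fit of 12 libraries (0.0503). The number of higher genes was 3 without SHMT replicate 1, 2 without wild-type replicate 3 and 0 without SHMT replicate 2 or wild-type replicate 1 or 2. It was 4 with library sizes alone, and 0 with the 6 libraries alone or with a replicate block in the fit of 12 libraries. Of 11 pyrimidine and deoxynucleotide genes, 7 were lower and none higher, with a median of −0.32. With library sizes alone 3 were lower and 2 higher, and 1 or 2 were higher without SHMT replicate 3 (2) and without wild-type replicate 1 or 2 (1 each). The catabolic gene CRMP stood at 1.76, 1.36 and 1.85 CPM in SHMT and 4.70, 4.35 and 6.26 CPM in wild type (−1.62, adjusted p = 0.00084 by edgeR), and r-l, which makes UMP, at 121, 108 and 180 CPM in SHMT and 220, 219 and 309 CPM in wild type (−0.87, adjusted p = 0.0020). RnrL, the large subunit of ribonucleotide reductase, was at 143, 184 and 176 CPM in SHMT and 208, 250 and 245 CPM in wild type (−0.48, adjusted p = 0.0023). All 3 were lower without overlap, but the call of RnrL was lost with library sizes alone (adjusted p = 0.054), and that of Dhod turned in sign. CRMP passed the count minimum in wild type alone, and of the other 10 genes of its list 6 were lower, with a median of −0.25.

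Glycolysis genes, all 12 of which were compared, were higher in 7 cases and lower in 1 (none lower without SHMT replicate 1 or 2 or wild-type replicate 2), with a median of 0.62. Over all genes 32.7% were higher and 27.2% lower. Among the 11 above the count minimum in both genotypes 6 were higher and 1 lower, with a median of 0.53. The call of Tpi was lost without SHMT replicate 3 or wild-type replicate 1 (adjusted p = 0.084 and 0.059 by edgeR). Hex-A, a hexokinase, stood at 65.1, 69.0 and 41.1 CPM in SHMT and at 14.7, 18.1 and 25.2 CPM in wild type (1.60 ± 0.21 SE, adjusted p = 7.0e-05 by edgeR), and the pyruvate kinase gene PyK at 21.6, 33.2 and 33.7 CPM in SHMT and 7.09, 10.5 and 11.4 CPM in wild type (1.62 ± 0.20 SE, adjusted p = 5.7e-05). The list summed to 697, 702 and 796 CPM in SHMT and 415, 503 and 600 CPM in wild type, with no overlap.

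Of 13 antioxidant genes, 6 were higher and 4 lower, beside 32.7% higher and 27.2% lower over all genes. Among the 11 above the count minimum in both genotypes 4 were higher and 4 lower, with a median of −0.03. Cnc, the fly homologue of Nrf2, stood at 60.1, 91.5 and 48.4 CPM in SHMT and at 22.0, 18.2 and 20.8 CPM in wild type (1.71 ± 0.19 SE, adjusted p = 2.2e-05 by edgeR). Its cytoplasmic inhibitor Keap1 was lower (−0.54, adjusted p = 0.0078). Gclc, the catalytic subunit for the first step of glutathione synthesis, stood at 6.48, 7.44 and 5.15 CPM in SHMT and 1.75, 2.79 and 2.29 CPM in wild type (1.51 ± 0.17 SE, adjusted p = 2.6e-05), and the thioredoxin gene Trx-2 at 6.57, 13.2 and 9.17 CPM in SHMT and 2.24, 2.57 and 1.74 CPM in wild type. These were higher in every SHMT library, but Gclc and Trx-2 passed the count minimum in SHMT alone. With library sizes alone none of the list was lower.

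Glutathione transferase and cytochrome P450 genes were called in both directions, beside shares over all genes of 32.7% higher and 27.2% lower. Of 18 glutathione transferase genes compared, 9 were higher and 6 lower (3 lower without SHMT replicate 1 or wild-type replicate 2, and 2 with library sizes alone). CG9362 stood at 36.7, 31.4 and 33.6 CPM in SHMT and at 15.1, 14.4 and 8.80 CPM in wild type (1.40 ± 0.18 SE, adjusted p = 6.7e-05 by edgeR), while CG5224 stood at 43.8, 41 and 40.3 CPM in SHMT and 83.0, 93.5 and 74.9 CPM in wild type (−1.01 ± 0.10 SE, adjusted p = 1.3e-05). Neither overlapped. Reads of near copies among these genes may have been split or dropped in counting. Of 13 cytochrome P450 genes, 6 were higher and 4 lower, among them Cyp6d4, at 14.8, 19.7 and 11.7 CPM in SHMT and 1.29, 2.06 and 1.54 CPM in wild type, and Cyp18a1, which inactivates ecdysone, at 0.238, 0.0907 and 0.258 CPM in SHMT and 3.64, 2.57 and 3.13 CPM in wild type. Cyp6d4 passed the count minimum in SHMT alone and Cyp18a1 in wild type alone. Of the 8 P450 genes that passed in both genotypes 3 were higher and 2 lower. Of 7 UDP-glycosyltransferase genes, 5 were higher and 2 lower (1 lower without SHMT replicate 2). The 2 lower genes passed the minimum in wild type alone, and the 4 genes that passed in both genotypes were all higher.

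Of 11 heat shock genes, 5 were higher and 2 lower, with a median of 0.31, beside 32.7% higher and 27.2% lower over all genes. With library sizes alone 7 were higher and 1 lower. Hsp27, a small chaperone that is loaded into the egg, stood at 256, 344 and 229 CPM in SHMT and at 42.8, 68.6 and 61.1 CPM in wild type (2.27 ± 0.18 SE, adjusted p = 2.1e-06 by edgeR), and DnaJ-1 at 130, 148 and 59.3 CPM in SHMT and 32.2, 25 and 27.8 CPM in wild type. The most abundant member, Hsc70-4, was lower, at 4048, 3666 and 5776 CPM in SHMT and 6579, 6616 and 8190 CPM in wild type (−0.66 ± 0.15 SE, adjusted p = 0.0027). SHMT replicate 3 was the SHMT library nearest to wild type in all 3 genes.

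Large complexes of the cell showed small shifts that depended on the scaling. With TMM, 32.7% of all genes were higher and 27.2% lower. Of 84 cytosolic ribosomal protein genes, 57 were lower and none higher with TMM, at a median log2 difference of −0.23, but 8 were lower and 2 higher with library sizes alone, at a median of −0.01. Without SHMT replicate 1, 33 were lower and 1 higher, and without wild-type replicate 2, 30 were lower. Their summed level was 149903, 151997 and 163041 CPM in SHMT and 184200, 200620 and 180553 CPM in wild type. Of 31 proteasome subunit genes, 15 were lower and 7 higher with TMM, and 1 lower and 10 higher with library sizes alone. The lower genes numbered 6 without SHMT replicate 1 or wild-type replicate 2 and 7 without SHMT replicate 2. The regulatory subunit gene Rpn5 was higher with either scaling, at 250, 283 and 234 CPM in SHMT and 106, 115 and 100 CPM in wild type (1.26 ± 0.09 SE with TMM, adjusted p = 8.5e-07 by edgeR). Of 68 mitochondrial ribosomal protein genes, 19 were higher and 10 lower (6 lower without SHMT replicate 2 or wild-type replicate 2, and 34 higher and 2 lower with library sizes alone). Of the 66 above the count minimum in both genotypes 17 were higher and 10 lower with TMM.

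The marker genes of the mutant chromosomes were unequal. Pn stood at 1.14, 1.72 and 1.49 CPM in SHMT and at 42.5, 57.3 and 50.4 CPM in wild type (−5.10 ± 0.17 SE, adjusted p = 9.4e-09 by edgeR), and sn, which encodes fascin, at 231, 215 and 278 CPM in SHMT and 744, 633 and 752 CPM in wild type (−1.56 ± 0.10 SE, adjusted p = 5.7e-07). Both were lower in every SHMT library. W was at 3.62, 3.67 and 3.55 CPM in SHMT and 2.92, 3.29 and 4.32 CPM in wild type (0.05, adjusted p = 0.87), and y and f did not reach the count minimum. On the X chromosome 34 of 1068 genes were higher by over 4-fold (3.18%) and 13 lower (1.22%). On the fourth chromosome 2 of 58 were higher and 5 lower (8.62%), and on 2R 22 of 1276 were higher and 25 lower (1.96%). Over all genes the shares were 2.45% higher and 1.41% lower.

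Genes of other tissues and stages were counted as well. None of 19 chorion, vitelline membrane and yolk genes passed the count minimum, their sum was 0.544 to 0.762 CPM in SHMT and 1.04 to 5.07 CPM in wild type, and 8 were at 0 in all 6 libraries, among them Cp36, Cp38 and Yp1. Of 12 muscle genes 3 passed (sums of 15.8 to 34.1 CPM in SHMT and 32.3 to 41.7 CPM in wild type), among them the myosin light chain gene Mlc2 at 0.0476, 0.0907 and 0.103 CPM in SHMT and 3.26, 3.23 and 2.43 CPM in wild type. Of 12 neuron genes Syx1A alone passed (sums of 121 to 126 CPM in SHMT and 117 to 137 CPM in wild type), and of 10 cuticle and trachea genes 2 (12.1 to 15.2 CPM in SHMT and 22.3 to 39.0 CPM in wild type). Of 9 hemocyte and fat body genes 2 passed (64.3 to 90.0 CPM in SHMT and 26.3 to 49.7 CPM in wild type), of which crq was higher (1.87, adjusted p = 4.8e-06 by edgeR) and nimC1 and Lsp1alpha were at 0. Of 10 testis genes 2 passed (72.8 to 85.1 CPM in SHMT and 30.5 to 32.5 CPM in wild type), of which bam, also a germline gene of the ovary, stood at 61.0, 65.1 and 52.7 CPM in SHMT and 13.4, 16.9 and 14.6 CPM in wild type (2.00 ± 0.12 SE, adjusted p = 2.9e-07), with Mst84Da, Mst87F and dj at 0. Mia, the other, lost its call when any of 5 libraries was left out. Their part in the other results was not tested.

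Finally, each gene's difference was set beside that at the 1.5–2.5 hr label, which rests on other libraries, and the difference between them was tested as an interaction in the same fit. Over all genes compared, 2522 passed the interaction test (39.1%). Of the 158 genes higher over 4-fold, 33 were also higher at the other label (20 over 4-fold), 3 were lower and 122 passed no test there, and their median log2 difference was 2.41 at the 0–1 hr label and 0.06 at the other. The interaction passed for 135 of them, 113 with over 4-fold. Of the 91 genes lower over 4-fold, 26 were also lower at the other label (18 over 4-fold), 1 was higher and 64 passed no test, with medians of −2.61 and −1.31. The interaction passed for 27 of these, 21 with over 4-fold. Genes of both directions were chosen by the difference at the 0–1 hr label, which the interaction includes. The numbers that passed and the gap between the medians are thus partly fixed by that choice. Many of the lower genes were near 0 in both genotypes at the other label, where a difference was hardly detectable at this depth.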

How the data were processed

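RNA of whole embryos was sequenced in 12 libraries, 3 for each genotype at each collection label. The authors deposited raw counts of reads per gene, which were not normalised. Per the submitters' processing notes, CASAVA 1.8.2, Bowtie2 2.1.0 and HTSeq were used with build dm3. No source used here gives the version or the strand setting of HTSeq, so reads of overlapping or antisense genes may be mixed. The 5 summary lines of each count table were dropped, among them reads outside genes (7.11 to 11.7% of the reads of the libraries labelled 0–1 hr) and ambiguous reads (1.33 to 1.38%). These libraries held 21611094 to 32642088 reads in genes.

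Counts were analysed in R 4.3.3 with edgeR 4.0.16 (limma 3.58.1) by the quasi-likelihood test with TMM scaling. The 12 libraries entered 1 fit with 4 group means, and p-values were adjusted by the Benjamini-Hochberg method over the 6884 genes that averaged 50 or more counts in any group. On simulated counts for 6884 genes, 100% of 100 genes changed 6-fold and 100% of 100 genes changed 16-fold were recovered at over 4-fold, and 0 of 6684 unchanged genes were called. Each simulated gene had 1 mean in all 12 libraries and a spread from the fitted trend, and changed genes averaged 50 or more counts. The simulation thus held no difference between labels and no spread particular to a gene. It does not test calls at any fold or of genes near 0 counts. Intervals cover counting error only. DESeq2 1.42.0, other scalings, filters and thresholds, a replicate block, the 6 libraries alone and leaving out each library were run as alternatives. Figures were drawn with Python 3.11.15 and matplotlib 3.10.9. Symbols were matched to Release 6 annotation, used for names, chromosomes and gene spans only: 10669 as current symbols and 3235 by a synonym, with 257 not matched.

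Named genes are the stage markers, CG3011 and pn, the 15 largest rises and 15 largest falls that averaged 100 or more counts in the higher genotype, in each list up to 6 genes of lowest adjusted p, and the 6 with the lowest adjusted p in each direction of each class by level. Other genes named were chosen after their values were seen. The members and the gene lists were chosen with earlier results of these data known.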

Additional observations from a re-analysis of the deposited data

Results flagged for a closer look

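The difference between SHMT and wild type itself differed between the labels in 131 of the named genes and in 10 of the 30 with the largest rises and falls. The 30 were chosen by the difference at the 0–1 hr label, which the interaction includes. In 7 of these 30 it differed by over 4-fold (interaction term in edgeR's fit, difference at the 0–1 hr label minus that at the 1.5–2.5 hr label, Benjamini-Hochberg adjusted). The interaction was 6.03 on the log2 scale for CG15047 (adjusted p = 1.2e-06), 4.29 for Tgt (6.4e-06), 4.18 for Pvf1 (7.1e-07), 3.87 for CG3626 (7.6e-07) and 2.38 for CG2641 (0.0060). It was −3.40 for Trs23 (7.1e-07) and −2.90 for Cyp6d2 (0.012). CG2641 was higher in SHMT at both labels (5.50 and 3.12), whereas Cyp6d2 was lower by −3.36 at the 0–1 hr label and passed no test at the other (−0.46). In all 7 genes the libraries of the genotypes did not overlap at the 0–1 hr label, which the choice of the largest differences largely fixes. The same held for 61.2% of all 6444 genes.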

How the results depend on the processing

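The number of genes higher in SHMT by over 4-fold (158) was 276 with genes of at least 1 count in any library, 105 with a minimum mean of 200 counts and 44 with glmTreat, and the number lower (91) was 366, 46 and 19 under these settings and 191 with edgeR's filterByExpr. At any fold, the number lower (1755) was 847 with library sizes alone, 1115 at an adjusted p under 0.01 and 1033 without the replicates 1 of both genotypes, the libraries with over 11% of reads outside genes, a setting chosen after seeing the data. With library sizes alone, 82 genes from 1 to 10 CPM, 281 from 10 to 100 CPM and 324 over 100 CPM were lower, and Dhod changed sign (0.044, adjusted p = 0.65). Leaving out each library in turn gave 123 to 190 genes higher and 73 to 124 lower by over 4-fold, and 1787 to 2134 higher and 1374 to 1761 lower at any fold. Under 1 CPM, 9 (without SHMT replicate 3) to 15 genes were higher. DESeq2 gave 149 higher and 97 lower, and the 6 libraries alone 150 and 99. Correlations of same-numbered libraries were −0.11, 0.28 and 0.19 and those of other pairs −0.35 to 0.20. They are too few to decide whether the replicate numbers pair the samples. With a replicate block the fit of 12 libraries gave 156 higher and 91 lower and that of 6 libraries 144 and 95. Of the named genes' values under the alternatives, 2178 kept direction and side of the threshold, 68 were no longer past it, 22 passed it newly and 1 was reversed. RNAs with few counts are limited by depth, and folds against libraries at or near 0 are imprecise.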
